A study of Mus musculus with 4 samples.

Results

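Complement is a cascade of plasma proteases and surface receptors that tags microbes and dying cells for uptake by phagocytes. Its classical route starts with C1q, its lectin route with mannose-binding lectins and ficolins, and its alternative route with C3 that activates by itself and is amplified by factor B; all routes meet at the cleavage of C3. Most components of plasma come from the liver, while myeloid cells make some of their own: macrophages and dendritic cells are a known source of C1q, and neutrophils store properdin in their granules.

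The genes described here are 7 members of this system: the C1q chain genes C1qa, C1qb and C1qc, the central component C3, the alternative pathway genes Cfp (properdin) and Cfb (factor B), and the membrane regulator Cd55. They were taken as all probes that the array files name for these genes, 9 of 41150 analysed probes (7 of 28497 genes). They were measured in bone marrow cells of male C57BL/6 mice, either wild type or lacking miR-223 (miR-223 KO), a microRNA of the myeloid lineage. GM-CSF at 40 ng/ml, a growth factor of granulocytes and macrophages, was given in culture over 4 days, and the expanding immature granulocytes were sorted out; age, sorting markers and how the gene was deleted are not given in the sources used here. Each group has 2 samples, each on its own Agilent array of 1 slide, and the labels do not say whether the replicates of a genotype came from separate animals, so the spread may be technical.

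The microRNA that the knockout lacks reads as follows in RefSeq (GRCm38.p6, chrX:96242884-96242905, + strand), with the seed, bases 2 to 8, in capitals, shown because one complement probe holds its complement.
mmu-miR-223-3p: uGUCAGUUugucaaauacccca
The complement of this seed, AACTGAC, is in 153 of 41150 probes (0.372%) and in 1 of the 9 complement probes. That probe is the C3 probe printed on 10 spots of each array (chr17:57343416-57343475, mm9, - strand). The 30 bases around the match, bases 22 to 51 of the probe, are shown with the match in capitals.
C3 probe: ttatggttgtcccAACTGACtacagcccag
In this probe the match covers bases 35 to 41, and it overlaps a TGA codon at bases 38 to 40 that follows 12 codons without a stop. Which frame C3 uses there was not taken from an annotation. A match of letters is a description and was not tested as a binding site.

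The probes of the C1q genes, whose values set the knockout arrays apart most, read as follows for the chains C1qa (chr4:136452409-136452468, mm9, - strand) and C1qb (chr4:136436578-136436637, mm9, - strand), both in lower case throughout.
C1qa probe: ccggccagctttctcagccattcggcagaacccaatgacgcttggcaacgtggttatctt
C1qb probe: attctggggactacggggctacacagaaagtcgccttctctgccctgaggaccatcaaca
The C1qc probe lies between them (chr4:136445766-136445825). In the RefSeq table of GRCm38.p6 the 3 genes are direct neighbours in the order C1qb, C1qc, C1qa on chromosome 4. Whether a probe lies in a coding exon or a UTR was not taken from an annotation here.

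RefSeq promoters were in the table for 5 of the 7 members. Those of C1qb and C1qc are shown, as neighbours with similar profiles over the arrays, by the 250 bases before the start (GRCm38.p6, - strand, chr4:136886201-136886450 and chr4:136892915-136893164), with GAGGAA, the core bound by the myeloid factor PU.1 and other ETS factors, in capitals on either strand (TTCCTC on the other strand).
C1qb promoter: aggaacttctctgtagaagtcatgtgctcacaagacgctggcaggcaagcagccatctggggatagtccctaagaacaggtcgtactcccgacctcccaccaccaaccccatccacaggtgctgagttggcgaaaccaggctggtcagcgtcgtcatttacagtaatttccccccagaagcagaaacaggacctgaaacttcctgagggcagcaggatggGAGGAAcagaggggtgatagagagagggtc
C1qc promoter: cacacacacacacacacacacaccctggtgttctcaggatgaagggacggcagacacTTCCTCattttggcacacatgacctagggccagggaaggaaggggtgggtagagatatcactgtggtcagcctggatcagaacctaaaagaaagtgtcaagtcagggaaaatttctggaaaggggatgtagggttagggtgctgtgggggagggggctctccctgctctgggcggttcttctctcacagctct
Each holds 1 match, which starts at position -30 from the gene start for C1qb and at -193 for C1qc. Over windows of 300 bases (250 before to 50 after the start), 28.3% of 32851 promoters hold GAGGAA, 13.6% TATAAA and 8.30% the STAT form TTCNNNGAA, each on both strands. TATAAA was found in the C3 window at position 14, and GAGGAA also in the Cfp window at 6 and 22. These positions lie after the gene start. TTCNNNGAA was found in none of the 5. None of this bears on whether a factor binds there.

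Levels are log2 intensities relative to the 75th percentile of each array, so that 0 is that percentile. Between 57.6% and 63.6% of probes were well above background on each array, no spot was saturated, and the array correlations over 16779 tested genes, which are not independent replicates, were 0.985 to 0.991 between genotypes and 0.990 and 0.994 within them. The sorted cells carried granulocyte genes: 13 of 13 measured granulocyte lineage markers were well above background on all arrays, among them Mpo (8.16 to 9.02), Elane (4.81 to 5.10) and S100a8 (9.41 to 9.92). Ly6g and Cebpe were not analysed here, and 0 probes were named for Mir223, so that the deletion was not checked. The macrophage genes Csf1r (3.24 to 3.76) and Cd68 (2.76 to 3.39) were also well above background in both genotypes.

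None of the 7 members passed an adjusted p of 0.05 in the comparison of knockout with wild type (limma, Benjamini-Hochberg over 16779 genes), which called 0% of all genes. At an unadjusted p of 0.05, 0 of the 7 members passed, against 13.5% of tested genes (7.96% higher and 5.55% lower in knockout). That count was 3 of 7, namely C1qa, C1qb and C1qc, with normexp background correction, against 9.53% of all genes. It was the same 3 of 7 with the replicate number as a block, against 14.9% of all genes. Fits with 1 array left out rest on a lone array in a group, so no such count of members is given for them. All 7 had a brightest probe well above background on every array, so the filter removed no member. Both knockout levels were under both wild-type levels for 3 members (C1qa, C1qb, C1qc), where 20.2% of genes did, and above for 1 (C3), where 27.8% did; with 3 members overlapping, 4 of 7 lay apart, against 48.0% of all tested genes. The median difference, knockout minus wild type, was -0.16 over the members and 0.03 over all genes.

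**Figure D1:**
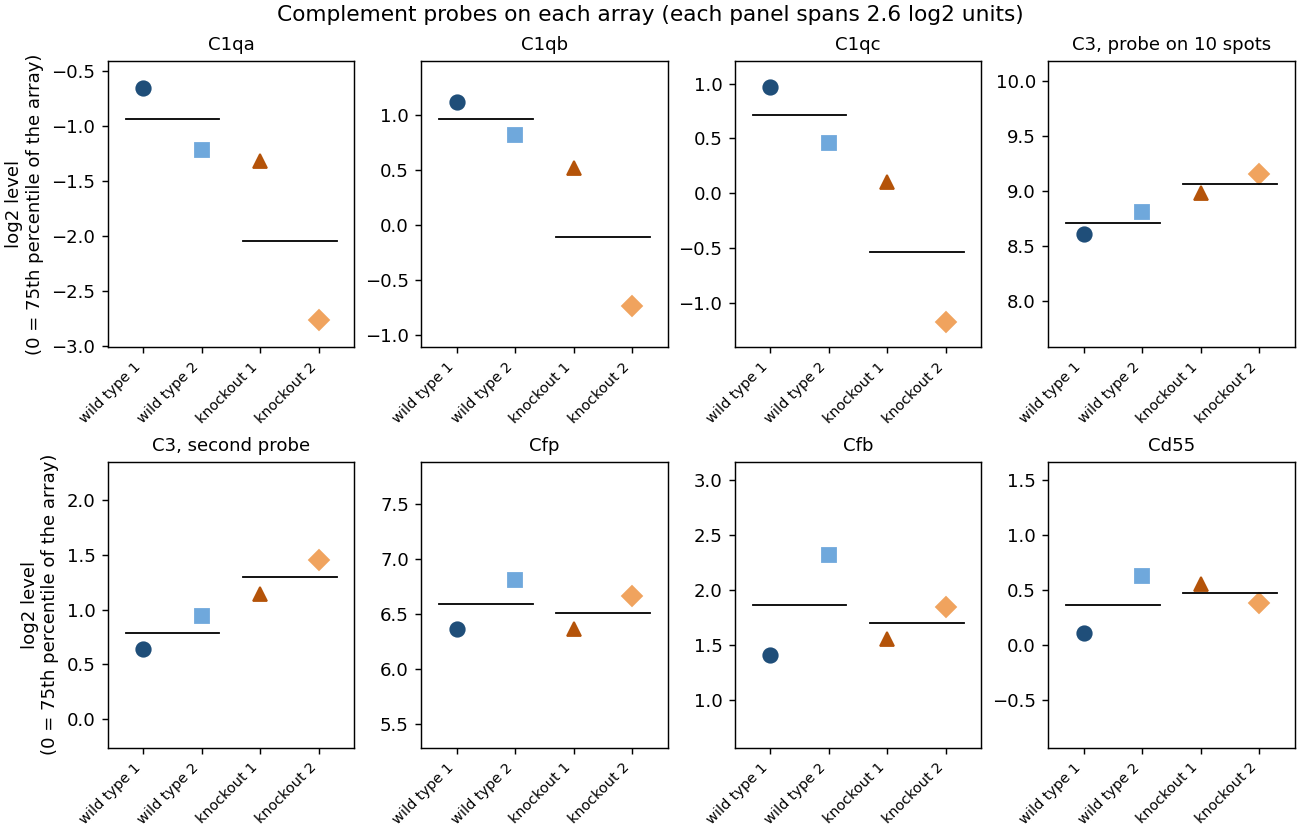
Log2 level (y axis, 0 is the 75th percentile of the array) of each complement probe on the 4 arrays (x axis), with each genotype's mean as a line; every panel spans the same range, and the dim second Cd55 probe is left out. The C1q genes are lowest on knockout array 2, both C3 probes are higher on both knockout arrays, and Cfp, Cfb and Cd55 overlap between genotypes.

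The C1q chains, which assemble together into the molecule that recognises antibody complexes and dying cells, had lower levels on both knockout arrays than on either wild-type array. C1qa, the A chain gene, stood at -0.65 and -1.22 on the wild-type arrays and at -1.32 and -2.77 on the knockout arrays. C1qb, the B chain gene, was at 1.11 and 0.82 against 0.52 and -0.74, and C1qc, the C chain gene, at 0.97 and 0.46 against 0.11 and -1.16. In each of them knockout array 2 was the lowest of the arrays and wild-type array 1 the highest. Wild-type array 2 lay above knockout array 1, so that the genotypes did not overlap. The gap between these closest arrays was only 0.10 for C1qa, 0.30 for C1qb and 0.35 for C1qc.

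The fitted log2 difference was -1.11 ± 0.54 for C1qa (SE, n = 2 arrays per group; 2.15-fold lower; 95% interval -2.54 to 0.33; limma adjusted p = 0.451). It was -1.07 ± 0.45 for C1qb (2.11-fold lower; interval -2.27 to 0.13; limma adjusted p = 0.402). For C1qc it was -1.25 ± 0.48 (2.37-fold lower; interval -2.52 to 0.03; limma adjusted p = 0.375). None of these intervals leaves out 0. The distance between the knockout arrays themselves was as large: knockout array 2 lay 1.45 (C1qa), 1.25 (C1qb) and 1.27 (C1qc) below knockout array 1. Against the wild-type mean, knockout array 1 was lower by a difference of -0.38, -0.45 and -0.61, and knockout array 2 by -1.83, -1.70 and -1.88, which are also the values that remain when the other knockout array is left out. The size of the C1q difference thus rested on knockout array 2, while its sign was the same on each knockout array.

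On the scanner's own scale the C1q probes were far from the floor. Processed intensities of C1qb were 1266 and 857 in wild type and 736 and 297 in knockout. Those of C1qc were 1150 and 670.0 against 555 and 220.5, and those of C1qa, the dimmest, 373 and 209 against 207 and 72.5. Local background was 18 to 23 for these spots, and the scanner's error model gave each intensity an error of about 10%. Each gene has 1 spot on each array, so no repeat spots check these values.

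**Figure D2:**
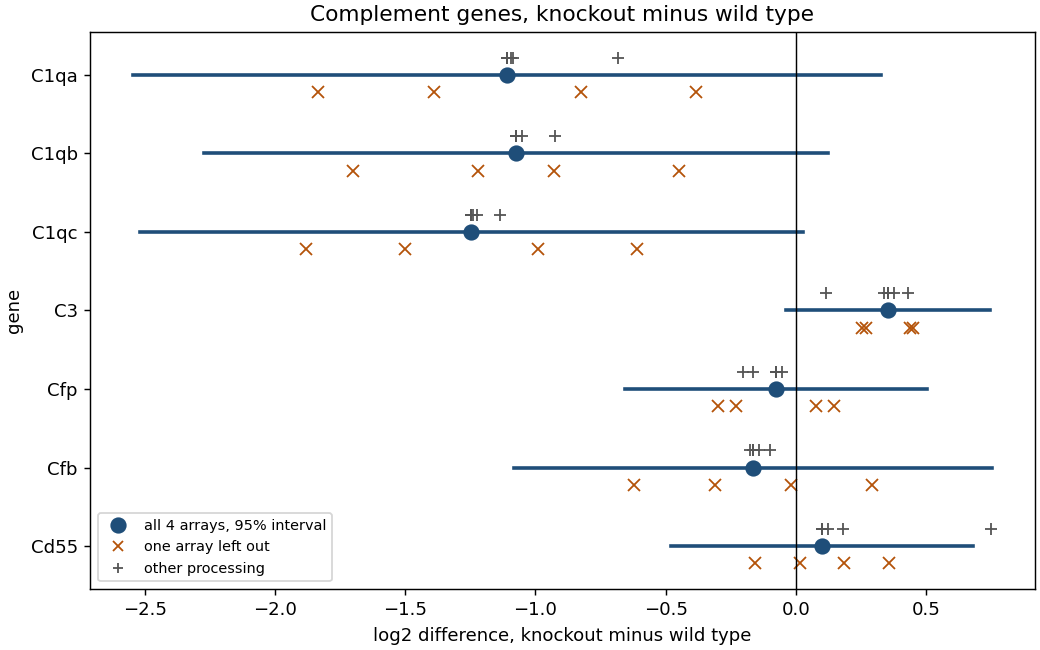
Log2 difference, knockout minus wild type (x axis), of each complement gene (y axis), with its 95% interval from limma; crosses leave out 1 array and plus signs use other processing. The C1q values lie below 0 throughout, from -1.88 to -0.38, the C3 values lie between 0.12 and 0.45, and those of Cfp, Cfb and Cd55 fall on both sides of 0.

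The C1q genes had similar profiles over the 4 arrays. After each gene was centred on its mean, the gene nearest to C1qa of 16778 others was C1qc, at a Euclidean distance of 0.19 over the 4 arrays, and C1qb ranked 3, at 0.24. From C1qc, C1qa ranked 3 and C1qb 5, and from C1qb, C1qc ranked 9 and C1qa 11. The nearest to C1qb were Krba1 (0.12), the peroxiredoxin-like gene Prxl2a (0.14) and the peptidoglycan amidase gene Pglyrp2 (0.15). The nearest to C1qc were the angiopoietin-like gene Angptl2 (0.14) and the glutaminase gene Gls2 (0.17), followed by C1qa, and for C1qa the gene Ms4a4c (0.23) came second. Of these, Krba1, Angptl2, Gls2 and Ms4a4c were dim, with levels on knockout array 2 of -5.04 to -6.11, where the lowest level well above background on that array was -6.62. These distances describe 4 points per gene and carry no test.

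Because C1q is made by macrophages and dendritic cells, the markers of these and other cells on the same arrays are given beside it. In bulk RNA, fewer cells of a type cannot be told from less RNA per cell. Of 17 measured macrophage and monocyte markers (18 listed, no complement gene among them; Timd4 was dim on every array), 15 were lower and 2 higher in knockout, with a median of -0.95, and 12 lay below and 2 above on both knockout arrays; 10 had an unadjusted p under 0.05 as lower and 2 as higher, and 0 passed after adjustment (limma). Over all tested genes, 20.2% lay below and 27.8% above, and 5.55% and 7.96% had such a p as lower and as higher. Mertk, a receptor for dead cells and the marker with the largest fall of this list, was at -2.49 and -2.80 in wild type. In knockout it was at -4.48 and -4.89, so that the genotypes did not overlap. Adgre1 was higher on both knockout arrays, by 0.75 with either of its probes. Csf1r (-0.17), Cd68 (-0.09) and Cx3cr1 (-0.18) overlapped between genotypes. The summed linear level of the list was 178 and 214 in wild type and 200.2 and 217 in knockout. Ly6c1, its brightest gene and one of the 2 that were higher, made up 48.5% to 70.0% of that sum, with 103 and 104 in wild type and 135 and 152 in knockout. Without Ly6c1, a sum added after the values were seen, the list stood at 75.04 and 109.9 in wild type and 65.0 and 65.2 in knockout. Leaving out a gene that was higher in knockout takes more from the knockout sums. The lower knockout sums thus depend on that choice, and the sums of the full list did not separate the genotypes.

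The marker lists differed in how they divided the knockout arrays. The median macrophage marker was 0.90 below the wild-type mean on knockout array 1 (-0.90) and 0.91 below it on knockout array 2 (-0.91). Mast cell and basophil markers stood at medians of -0.56 and -2.18, over 8 genes of which 7 were lower. Dendritic markers were at -0.04 and -0.63 over 9 genes, and granulocyte lineage markers at 0.13 and 0.04 over 13. Of the dendritic markers, 7 were lower and 2 higher in knockout. Both knockout arrays lay below for 5 of them and above for 1, against 20.2% and 27.8% of all tested genes. An unadjusted p under 0.05 (limma) was found for 4 as lower and 1 as higher, against 5.55% and 7.96%. After adjustment 0 of them passed. The C1q genes lay 1.25 to 1.45 lower on knockout array 2 than on knockout array 1. The mast cell and basophil median was also lower on array 2, and so, by less, was the dendritic median. The macrophage median was about the same on both. The summed linear level of mast cell and basophil markers was 48.6 and 50.3 in wild type and 33.1 and 10.3 in knockout, that of dendritic markers 174 and 188 against 184 and 123. Of the other lists, megakaryocyte markers had a median difference of -0.56 (4 of 4 tested), eosinophil markers -0.11 (4 of 5), erythroid markers 0.08 (2 of 5) and B cell markers 0.56 (3 of 5, without Ebf1 and Pax5, which were dim on every array). The part of these cells in the C1q values was not tested.

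**Figure D3:**
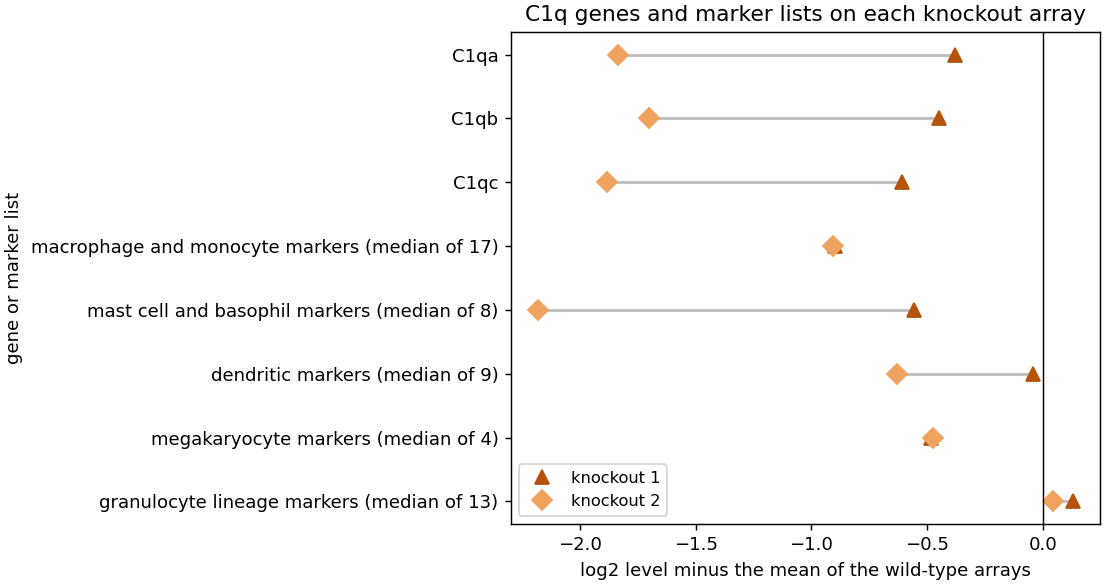
Log2 level on each knockout array minus the wild-type mean (x axis) for the C1q genes and for the median gene of 5 marker lists (y axis). The C1q genes and the mast cell and basophil markers are much lower on knockout array 2 than on array 1. Dendritic markers are lower there too, by less (-0.04 and -0.63). The macrophage markers are at about the same place on both (-0.90 and -0.91).

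C3, whose cleavage is the step that all complement routes share, was higher on both knockout arrays. The probe on 10 spots stood at 8.61 and 8.81 in wild type and 8.98 and 9.15 in knockout, and a second probe, at another place in the gene (chr17:57364538-57364695), at 0.64 and 0.94 against 1.14 and 1.45. Neither probe overlapped between genotypes, and both put the arrays in the same order. The difference was 0.35 ± 0.15 (SE, n = 2 per group; 1.28-fold; 95% interval -0.04 to 0.75; limma adjusted p = 0.400) for the first probe and 0.51 for the second. The second probe is placed by the array files over 158 bases of genome for its 60 bases of sequence, so that it crosses an intron.

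The repeat spots of the first C3 probe give its error within an array. Their SD was 0.06 on wild-type array 1, 0.07 on wild-type array 2, 0.06 on knockout array 1 and 0.04 on knockout array 2 (log2, n = 10 spots each), and processed intensities averaged 229780 and 218395 in wild type and 260024 and 281054 in knockout. The spots measure one labelled sample each, so they are no replicates of a genotype. The wild-type arrays differed from each other by 0.20 and the knockout arrays by 0.17, more than the spot SD, and the gap between the closest arrays of either genotype was 0.17. The C3 difference of 0.35 was larger than the distance between the arrays of either genotype, and its 95% interval still held 0. With quantile normalization, which pulls the brightest probes of every array to the same values, it was 0.12.

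**Figure D4:**
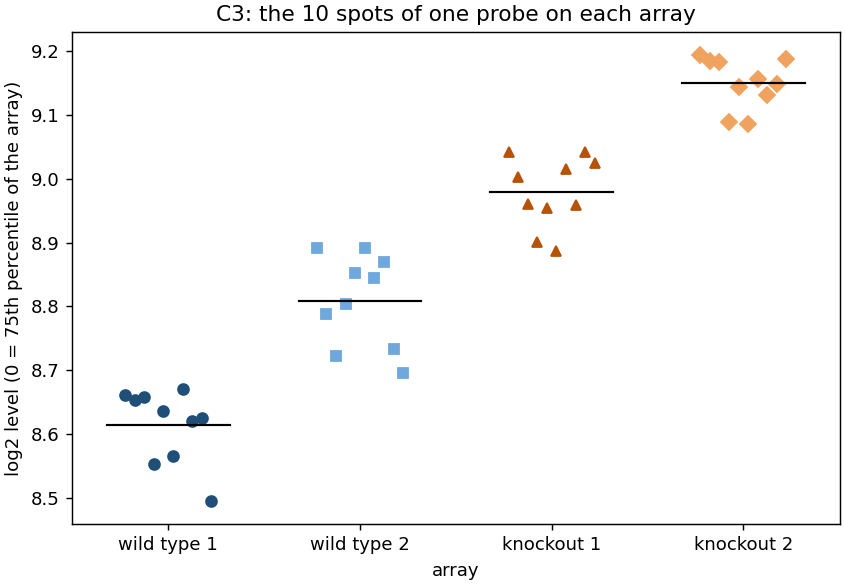
Log2 level (y axis) of the 10 spots of the C3 probe on each array (x axis), with the mean of the spots as a line. The means go from 8.61 and 8.81 in wild type to 8.98 and 9.15 in knockout, and the lowest spot of knockout array 2, at 9.09, is above every spot of the other arrays.

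The alternative pathway genes did not separate the genotypes. Cfp encodes properdin, which holds the C3 convertase together, and its probe on the X chromosome (chrX:20502742-20502801) stood at 6.37 and 6.81 in wild type and 6.36 and 6.67 in knockout. Array 1 of each genotype had nearly the same level, and the difference was -0.08 ± 0.22 (SE, n = 2 per group; 95% interval -0.66 to 0.50; limma adjusted p = 0.904). The Cfp probe is shown because it measures a neutrophil granule product at high intensity, 42330 to 54678 on these arrays.
Cfp probe: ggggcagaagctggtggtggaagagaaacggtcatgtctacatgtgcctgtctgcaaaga

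Cfb encodes factor B, the protease of the alternative convertase, and lies beside the classical pathway gene C2 on chromosome 17 in RefSeq. It was at 1.41 and 2.32 in wild type and 1.56 and 1.85 in knockout. Both knockout arrays lay between the wild-type arrays, which differed by 0.91, and the difference was -0.16 ± 0.34 (95% interval -1.08 to 0.75; n = 2 per group; limma adjusted p = 0.859). The intervals of Cfp and Cfb hold changes in either direction. The sign also turned for both without wild type replicate 2 (0.15 for Cfp, 0.29 for Cfb), and for Cfp without miR-223 knockout replicate 1 (0.08).

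Cd55, decay-accelerating factor, shields host cells by taking C3 convertases apart. Its probe (chr1:132336925-132344911, 60 bases of sequence placed over 7987 bases of genome) stood at 0.11 and 0.62 in wild type and 0.55 and 0.38 in knockout. The genotypes overlapped, with a difference of 0.10 ± 0.22 (SE, n = 2 per group; 95% interval -0.48 to 0.68; limma adjusted p = 0.863), and without wild type replicate 1 it was -0.15. A second probe that the array names Cd55 was well above background on knockout array 2 alone, at -6.24, with measured levels of -8.51 and -7.63 in wild type and -7.10 on knockout array 1, so no fold is given. It lies 48841 bases from the first (chr1:132288024-132288083, mm9), more than the 35212 bases that RefSeq gives as the length of Cd55, whose neighbour is the gene copy Cd55b. The probe of Cd55b itself was well above background on 1 of the 4 arrays.

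Among the other genes of the pathway, 45 were listed and found on the array, 24 were tested, and 14 were dim on every array. Of the 24, 12 were higher and 12 lower in knockout, with a median of -0.0033, and 0 passed an adjusted p of 0.05 (limma); the median over all genes was 0.03, with 54.5% of them higher. At an unadjusted p of 0.05, 4 were lower, Fcna, C3ar1 and Itgax among them, and 0 higher, against 5.55% and 7.96% of all genes. Both knockout arrays lay below in 9 of 24 (37.5%) and above in 5 (20.8%), against 20.2% and 27.8% of all tested genes.

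**Figure D5:**
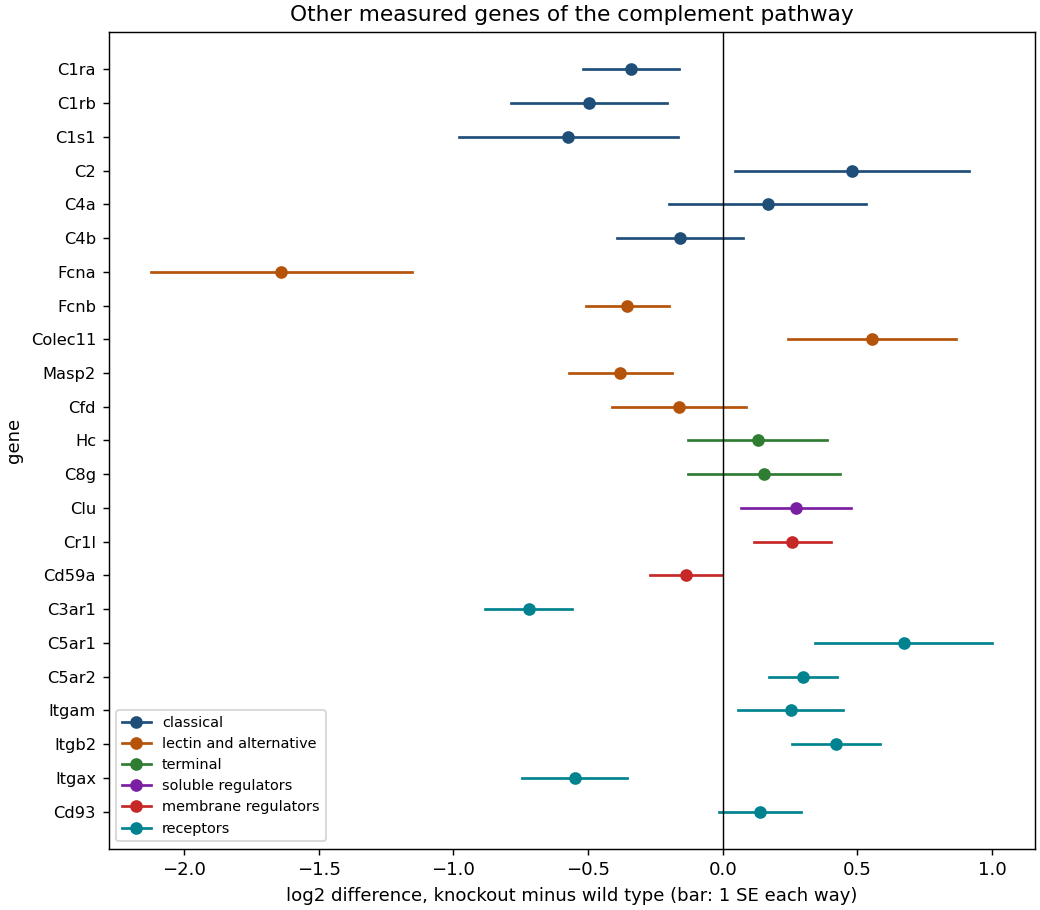
Log2 difference, knockout minus wild type (x axis, bars are 1 SE each way), of tested genes of the wider pathway that were well above background on 1 or more arrays of each genotype (y axis), coloured by class. Fcna and C3ar1 lie lowest among them, at -1.64 and -0.72.

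In the classical route the tested proteases that C1q activates were lower, without passing, and C1s2 was dim on every array. C1ra was at -0.34 ± 0.18 (SE, n = 2 per group), C1rb at -0.50 ± 0.29 and C1s1 at -0.57 ± 0.41 (limma adjusted p = 0.476, 0.513 and 0.581). The knockout levels of C1ra and C1rb were under both wild-type levels and those of C1s1 overlapped them. Of 6 tested genes of this class 4 were lower and 2 higher. C1ra, C1rb and C1s1 were named for the smallest p among them, so their shared direction is no separate result. In the lectin route, Fcna, a ficolin made by macrophages, was at -4.59 and -3.34 in wild type and -5.91 and -5.30 in knockout, a difference of -1.64 ± 0.49 (limma adjusted p = 0.317). Fcnb, the ficolin of neutrophils and a member of the granulocyte list too, was at -0.35 ± 0.15 (limma adjusted p = 0.419), and the protease gene Masp2 at -0.38 ± 0.19 (2 probes below the filter gave -0.39 and 0.72). Both knockout arrays were below for each of these 3 genes, where 20.2% of all tested genes did. They were named for the smallest p among the 5 tested lectin and alternative genes, so this is no separate result. Of the others, Cfd overlapped (-0.16) and Colec11 lay above on both knockout arrays (0.55). Colec11 was dim, and well above background on 3 of the 4 arrays. On wild-type array 2 its level of -6.69 was under the lowest level well above background there, -5.39.

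Of the terminal components, which form the membrane pore, 2 of 7 were tested: Hc, which encodes C5, at 0.13 ± 0.26 and C8g at 0.15 ± 0.28 (SE, n = 2 per group; limma adjusted p = 0.852 and 0.836). Both overlapped between genotypes. Among soluble regulators, Clu, clusterin, was at 0.27 ± 0.20 (limma adjusted p = 0.600) and overlapped.

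Of the membrane regulators, Cr1l, the mouse C3 convertase inhibitor Crry, was at 0.26 ± 0.14 (SE, n = 2 per group; another probe 0.31; limma adjusted p = 0.493), higher on both knockout arrays. Cd59a, an inhibitor of the membrane pore, was at -0.14 ± 0.13 and dim, at -5.71 to -5.96, with both knockout levels the lower (limma adjusted p = 0.685). Among receptors, C3ar1, the receptor for the C3a fragment, was at -2.26 and -2.46 in wild type and -2.95 and -3.21 in knockout, a difference of -0.72 ± 0.16 that a second probe gave as -0.76 (limma adjusted p = 0.263). Itgax, the alpha chain of complement receptor 4 and also in the dendritic list, was at -0.55 ± 0.19 (another probe -0.62; limma adjusted p = 0.356). Itgb2, the beta chain that it shares with complement receptor 3, was at 0.42 ± 0.16 (limma adjusted p = 0.381), and 5 of the 7 tested receptors were higher.

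The levels of the other members ranged over 0.45 (Cfp) to 0.91 (Cfb) across the arrays, against 1.85 (C1qb) to 2.14 (C1qc) for the C1q genes. How many genes had profiles near theirs was not counted. Nearest to C3 by the same distance were Trak2 (0.02), Ss18l1 (0.02) and the NAD kinase gene Nadk (0.04), to Cfp the genes Npm2, Bank1 and Smpdl3b (0.03 to 0.05), to Cfb the clock gene Per1, Metrnl and Sema4c (0.08 to 0.12), and to Cd55 the genes Smyd1, C1d and Eif4ebp1 (0.02 to 0.04). Between members, the C1q genes lay 0.19 to 0.24 from each other and 1.52 to 1.96 from the other members, which lay 0.34 to 0.73 from one another.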

How the data were processed

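Cy3-labelled RNA of 4 samples was hybridised to Agilent arrays of 1 slide. Per the file headers, the authors' intensity values per spot came from Agilent Feature Extraction 10.5.1.1, with background and spatial trends removed, surrogates for dim spots and no scaling between arrays. The deposited log2 values were found to equal log2 intensity plus a constant per array (99.8% of probes within 0.01); how they were made is not stated.

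From the intensities, control and flagged spots were left out, spots of a probe averaged on the log2 scale, and each array's 75th percentile subtracted. Percentiles were 586 and 486 (wild type) and 515 and 494 (knockout). Probes were named through RefSeq accessions of GRCm38.p6 (26873 by systematic name, 113 by another accession, 14164 kept the array's name). Members were taken by the array's gene name; the accession of each of the 9 probes gave the same symbol. The brightest probe stood for a gene, which entered the test if 1 group or both had this probe well above background on each of its arrays. The comparison of genotypes used limma 3.58.1 (R 4.3.3, lmFit and eBayes, two-sided, Benjamini-Hochberg over all tested genes at 0.05); the script was tested on simulated data. P-values measure the spread between these samples only. The number of arrays limits the precision (median SE 0.156).

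The members and lists were chosen with earlier results of these data known. Named genes were the members, up to 3 genes per pathway class with the smallest p, the 3 nearest profiles of each member, and marker genes. Csf1r, Cd68, Cx3cr1, Adgre1, Ly6c1, Mertk, Mpo, Elane and S100a8 were picked from the marker lists after their values were seen. Some genes that this rule names are not reported here. Alternatives were the authors' values, quantile normalization, normexp background correction with an offset of 50, no filter, each probe or the mean of probes, the replicate number as a block, and each array left out.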

Additional observations from a re-analysis of the deposited data

How the results depend on the processing

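The C1q genes kept their lower sign and C3 its higher sign under all 11 alternatives. In these genes both knockout arrays lay on one side of both wild-type arrays. Leaving out 1 array could therefore not turn the sign. For the C1q genes, with 1 probe each, the filter, probe and block settings also return the same difference. With all 4 arrays kept, 0 members passed an adjusted p of 0.05 (limma, lowest 0.238, C1qc with the replicate block). Over all genes, 5 were called with normexp background correction, 3 with every probe fitted on its own, and from 0 to 339 with 1 array left out, the highest without wild type replicate 1, where the lone wild-type array is assumed to vary like the other group. The cause was not tested. With 1 array left out, the difference ran from -0.15 to 0.36 for Cd55, from -0.30 to 0.15 for Cfp and from -0.62 to 0.29 for Cfb, and the number of members lower in knockout from 3 to 6. The median of the wider list ran from -0.144 to 0.0643 with 1 array left out and was 0.0196 with the authors' deposited values. The mean of all probes put Cd55 at 0.75, through its dim second probe. Deviations of same-numbered arrays from their group means were only weakly correlated (r = 0.174 across genes). With 2 pairs the labels give only a number, so a pairing of the arrays was not established. With the replicate block the differences stay as they are, and the unadjusted p was 0.0161 for C1qa, 0.0214 for C1qb and 0.00765 for C1qc, against 0.102, 0.0686 and 0.0533 without it (limma); 14.9% of all genes were then under 0.05. With normexp these p were 0.0412, 0.0154 and 0.00781, and 9.53% of all genes were under 0.05. Without miR-223 knockout replicate 1 the differences were -1.83 (C1qa), -1.70 (C1qb) and -1.88 (C1qc). They rest on knockout array 2 alone, so no p is given for them.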
